A study of Mus musculus with 10 samples.

Results

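The 30 genes described here encode enzymes, regulators and a carrier of cholesterol and fatty acid synthesis. They were found as the rows of the gene count table that carry the listed symbols, and all 30 symbols were found among 55486 genes, each on 1 row. 8 genes belong to the mevalonate branch, and 11 make squalene or carry it to cholesterol (called squalene to cholesterol genes). Of the rest, 5 are regulators or carriers of the pathway and 6 synthesize or modify fatty acids. The study put normal fibroblasts (NFs) of the mouse mammary gland and tumor cells of invasive lobular carcinoma (ILC) into 3D collagen gels for 7 days and sequenced the mRNA of each sorted cell population in 10 libraries.

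NFs came from female mTmG mice aged 8 weeks, whose cells carry a membrane Tomato reporter that Cre switches to GFP. Sorted cells of pooled mice were split by surface CD26 and grown in 2D first. The CD26+ NFs had been exposed to an adenoviral Cre so that they turned green, and the CD26− NFs had not, so that subset and virus exposure cannot be told apart in any comparison of them. Both NF subsets were mixed in every NF gel and separated again by color. The tumor cells were the lines 13-MCB-17 and 10-SJK-221, each derived from 1 tumor of a mouse with Wap-Cre (active in mammary epithelium) and floxed alleles that include Cdh1. Gel 1 held both NF subsets alone, gel 2 held 13-MCB-17 alone, gel 3 held 10-SJK-221 alone, gel 4 held NFs with 13-MCB-17 and gel 5 held NFs with 10-SJK-221. NFs alone were therefore 2 libraries of 1 gel, co-cultured NFs were 4 libraries of 2 gels, and tumor cells were 2 libraries alone and 2 in co-culture. All NFs alone shared 1 gel, so gel and condition cannot be told apart for them, and p-values measure the spread between these libraries.

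As background, cells make cholesterol from acetyl-CoA through mevalonate, farnesyl pyrophosphate and squalene, and make saturated and monounsaturated fatty acids from the same acetyl-CoA pool. Transcription of both branches is driven by the SREBP factors, of which SREBP2 (Srebf2) acts mainly on sterol genes and SREBP1 (Srebf1) mainly on fatty acid genes. INSIG proteins hold the SREBPs and their escort in the endoplasmic reticulum when sterols are plentiful, and low sterol releases them. Fibroblasts and epithelial cells both run the pathway, which supplies membrane sterol and the acyl chains of phospholipids.

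SREBPs bind promoters beside the factor NF-Y, whose core letters are CCAAT. RefSeq promoters on GRCm38.p6, each spanning 250 bases before to 50 bases after a gene start, were at hand for 24 of the 30 genes. The letters CCAAT, read on both strands, were found in 21 of these 24 genes and in 41.1% of the 27025 genes with a listed promoter (37.4% of 32851 promoters). The 3 without it were Acat2, Acaca and Elovl6. A sterol element written TCACNCCAC was found in 1 of the 24, Hmgcs1, and in 1.44% of genes (1.24% of promoters). The E-box CACGTG was found in 4 of the 24 (Hsd17b7, Sc5d, Dhcr7 and Insig1) and in 8.09% of genes (7.15% of promoters). A match is only a match of letters, and its absence from this window says nothing about the factor. The 200 bases before the start are printed for 4 genes that moved in different ways in co-culture: Hmgcs1 did not pass the test, Insig2 rose in NFs and fell in tumor cells, Fasn rose in both, and Mvk fell in NFs. They are written 5′ to 3′ on the strand of the gene. Capitals mark CCAAT, its reverse complement ATTGG and, in Hmgcs1, TCACCCCAC starting 137 bases before the start. The windows are chr13:119690151-119690350, plus strand for Hmgcs1, chr1:121332590-121332789, minus strand for Insig2 (the first of 3 listed promoters), chr11:120824548-120824747, minus strand for Fasn and chr5:114444069-114444268, plus strand for Mvk.
Hmgcs1: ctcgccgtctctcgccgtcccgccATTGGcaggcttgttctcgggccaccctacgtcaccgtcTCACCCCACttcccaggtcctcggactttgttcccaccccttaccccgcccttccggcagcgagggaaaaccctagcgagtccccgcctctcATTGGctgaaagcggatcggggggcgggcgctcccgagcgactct
Insig2: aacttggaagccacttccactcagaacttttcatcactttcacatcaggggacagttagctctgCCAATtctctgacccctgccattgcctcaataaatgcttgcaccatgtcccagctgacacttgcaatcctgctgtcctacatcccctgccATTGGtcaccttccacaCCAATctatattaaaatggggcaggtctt
Fasn: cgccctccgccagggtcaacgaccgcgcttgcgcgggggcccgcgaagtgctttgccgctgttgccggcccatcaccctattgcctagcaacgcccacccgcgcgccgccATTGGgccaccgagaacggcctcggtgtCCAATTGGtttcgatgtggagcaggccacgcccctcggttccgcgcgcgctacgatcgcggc
Mvk: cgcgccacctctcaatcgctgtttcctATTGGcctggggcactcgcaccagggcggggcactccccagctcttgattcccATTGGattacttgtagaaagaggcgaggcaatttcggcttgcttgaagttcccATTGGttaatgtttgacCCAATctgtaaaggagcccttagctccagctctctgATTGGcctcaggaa
The Mvk window held 5 CCAAT matches, Insig2 and Fasn 3 each and Hmgcs1 2, and in Fasn a CCAAT and an ATTGG shared their middle letters.

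The libraries held 14142334 to 18408940 counts. Fibroblast markers summed to 24646 to 76414 CPM (counts scaled to a library total of 1000000) in NFs and to 39.3 to 209 CPM in tumor cells, and the 8 epithelial markers summed to 3322 to 4487 CPM in tumor cells and to 0.435 and 0.912 CPM in NFs alone. Co-cultured NF libraries held 103 to 275 CPM of the epithelial markers, which is 2.98 to 6.55% of the tumor library of the same gel, with CD26+ NFs of gel 5 the highest. Single markers gave shares from 0.827 to 17.7%, with Krt19 the highest in all 4 libraries (9.19 to 17.7%). Fibroblast markers in the co-cultured tumor libraries came to 0.333 and 0.624% of the NFs of the same gel. Dpp4, which encodes CD26, stayed between 0 and 0.771 CPM in all NF libraries and could not check the subset labels. Cdh1 was counted at 139.9 to 269 CPM in tumor cells. Gene counts do not show which exons were read, so this level does not check the deletion. The 7 adipocyte markers summed to 43.1 and 73.3 CPM in NFs alone, 10.0 to 53.1 CPM in co-cultured NFs and 0.679 to 10.9 CPM in tumor cells, with Lep and Cidec at or under 0.14 CPM. The 5 immune markers summed to 11.5 and 14.1 CPM in NFs alone, 31.5 to 63.3 CPM in co-cultured NFs, 301 and 101 CPM in the lone tumor lines and 92.2 and 47.8 CPM in the lines grown with NFs. Cd68 gave 299 and 93.1 CPM of this in tumor cells alone, and the leukocyte marker Ptprc stayed at or under 0.127 CPM. The 4 endothelial markers summed to 2.34 to 24.4 CPM.

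All 30 genes were detected in all 10 libraries, with at least 43 counts, and all entered every test. Together they took 0.283 and 0.285% of the counts in NFs alone, 0.405 to 0.432% in co-cultured NFs, 0.575 and 0.618% in tumor cells alone and 0.693 and 0.708% in co-cultured tumor cells. The 19 sterol enzymes summed to 1158 (CD26−) and 1123 CPM (CD26+) in NFs alone and to 1329 to 1479 CPM in NFs with tumor cells. The lone tumor lines stood at 2006 and 2097 CPM, and with NFs at 2063 and 1841 CPM. The 6 fatty acid genes summed to 1191 and 1178 CPM, 1971 to 2104 CPM, 2714 and 3076 CPM, and 4033 and 4215 CPM in the same groups. Fatty acid genes therefore stood at 1.03 and 1.05 times the sterol enzymes in NFs alone, 1.39 to 1.50 times in co-cultured NFs, 1.35 and 1.47 times in tumor cells alone and 1.95 and 2.29 times in co-cultured tumor cells. The sums are descriptions over genes of unequal level. Scd2 alone gave 405 to 2638 CPM of the fatty acid sum, and the order of the ratio between NFs and tumor cells depends on it.

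**Figure D1:**
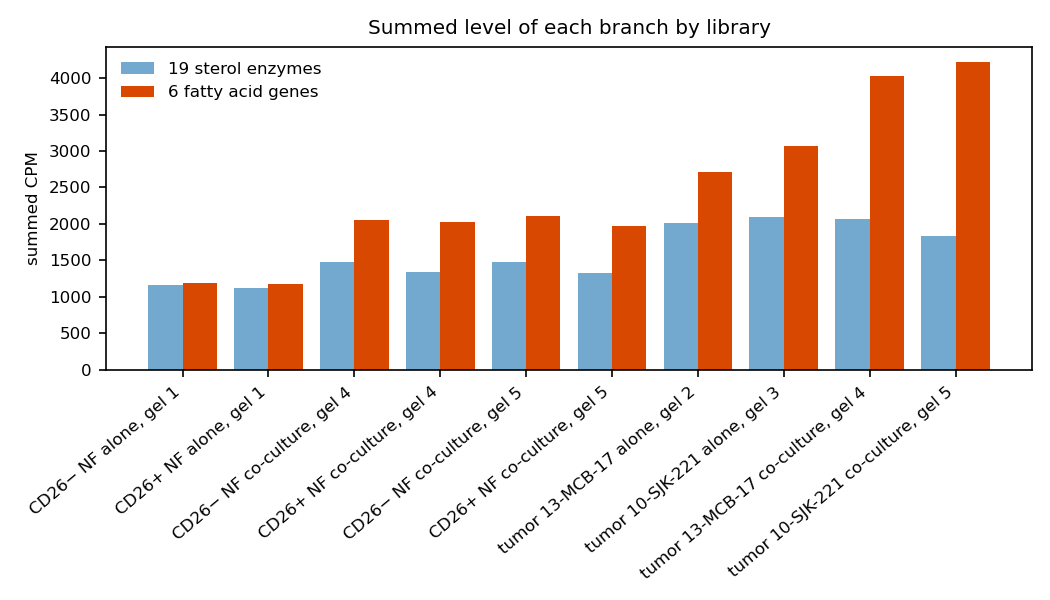
Summed CPM (vertical axis, from 0) of the 19 sterol enzymes and the 6 fatty acid genes in each of the 10 libraries. The sterol bars run from 1123 to 2097 CPM and the fatty acid bars from 1178 to 4215 CPM, with the tallest fatty acid bars in the 2 co-cultured tumor libraries.

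Each gene was compared on its own, with 1 value per library. In the sentences that list all libraries, NFs alone are given as CD26− then CD26+, co-cultured NFs as CD26− and CD26+ of gel 4 and then of gel 5, and tumor cells as 13-MCB-17 then 10-SJK-221. Changes are log2 fold changes ± SE from edgeR's quasi-likelihood test with Benjamini-Hochberg adjustment over all genes tested, called at an adjusted p under 0.05.

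**Figure D2:**
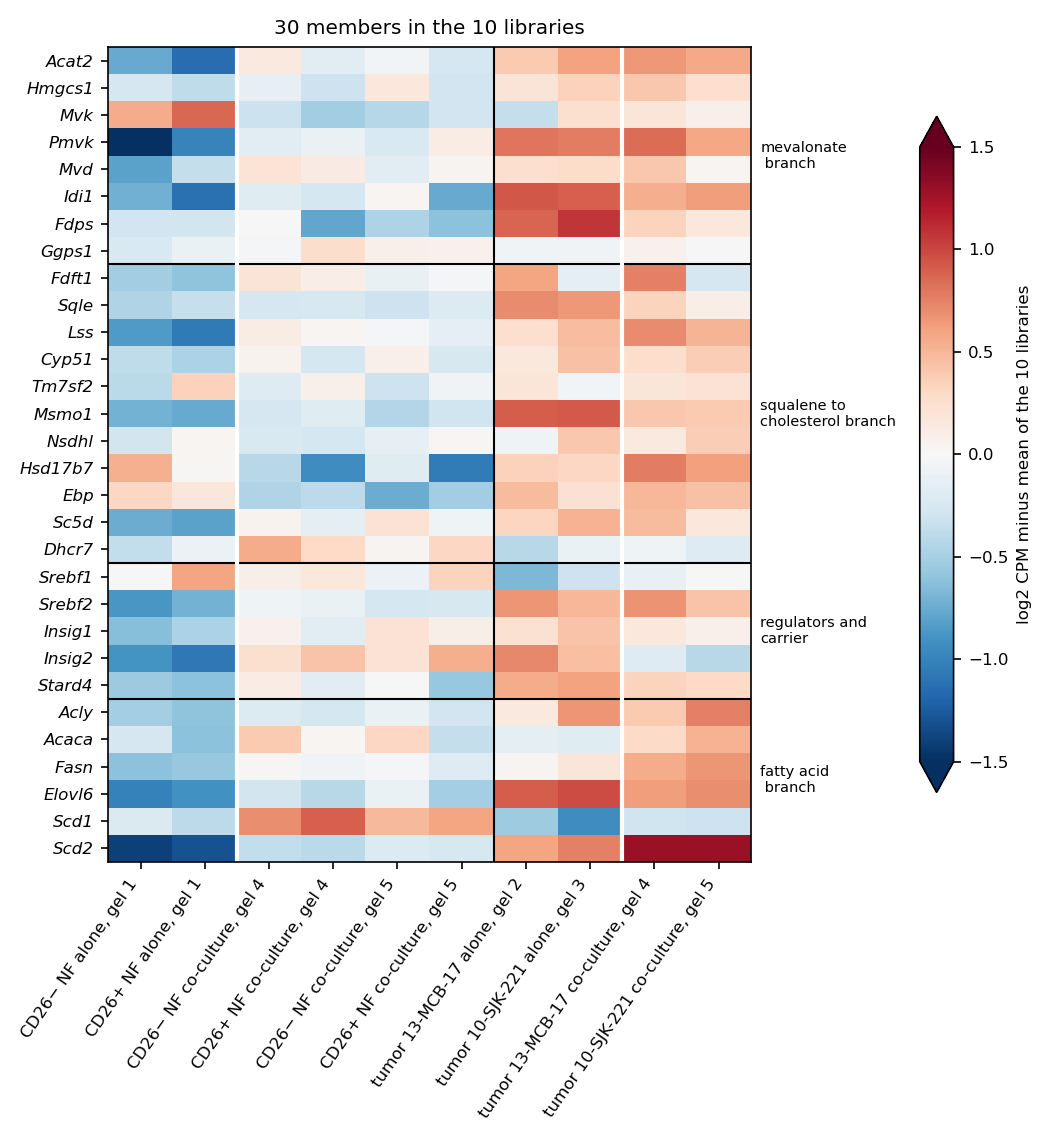
Level of each of the 30 genes (rows, grouped by role) in the 10 libraries (columns), as log2 CPM minus the gene's mean over the 10 libraries, with colors saturating at 1.5. NFs alone are low for most rows, and Mvk, Hsd17b7 and Ebp are low in co-cultured NFs.

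The first question was how NFs and tumor cells differ when each grows alone. NFs had less mRNA of 16 of the 30 genes and more of 2, against 21.3% of all 14404 genes tested lower and 25.9% higher (47.2% in either direction). The median log2 difference was -0.70 over the 30 genes and 0.05 over all genes. In bulk samples, a difference in the share of cells and a difference in RNA per cell cannot be told apart. The genes lower in NFs were 5 of 8 in the mevalonate branch, 4 of 11 squalene to cholesterol genes, 4 of 5 regulators and carriers and 3 of 6 fatty acid genes.

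Elovl6, which elongates palmitate to stearate, was at 23.0 and 24.8 CPM in NFs grown alone, 38.5, 34.8, 43.3 and 32.6 in NFs with tumor cells, 86.8 and 91.2 in lone tumor cells and 71.8 and 75.4 in tumor cells with NFs. All NF libraries lay below all tumor libraries, and NFs alone were 3.33-fold lower than tumor cells alone (-1.73 ± 0.19, adjusted p = 0.00102). Idi1, the isomerase that interconverts the isoprenoid units, was at 13.7 and 10.3 CPM in NFs grown alone, 19.8, 18.8, 23.0 and 13.3 in NFs with tumor cells, 42.7 and 41.9 in lone tumor cells and 32.9 and 34.7 in tumor cells with NFs. NFs alone were 3.13-fold lower (-1.65 ± 0.26, adjusted p = 0.00415), and no NF library reached a tumor library. Acly, which splits citrate into cytosolic acetyl-CoA, was at 219 and 205 CPM in NFs grown alone, 271, 260.3, 292 and 255 in NFs with tumor cells, 344 and 493 in lone tumor cells and 411 and 527 in tumor cells with NFs. It was lower in NFs alone by 0.81 ± 0.24 on the log2 scale (adjusted p = 0.0355). That call was lost without CD26− NFs, without CD26+ NFs or without 10-SJK-221, and with no filter on low counts (-0.83, adjusted p = 0.0518). Sqle, squalene epoxidase, was at 104 and 112 CPM in NFs grown alone, 119, 121, 115 and 124 in NFs with tumor cells, 233 and 224 in lone tumor cells and 179 and 153 in tumor cells with NFs. Its difference alone was -0.92 ± 0.19, adjusted p = 0.00983, with NFs below tumor cells in every library.

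Pmvk, phosphomevalonate kinase, was lower in NFs alone (-1.90 ± 0.26, adjusted p = 0.00241), as was Msmo1, a C4-demethylating oxidase of the sterol ring (-1.48 ± 0.19, adjusted p = 0.00211). Lss, which cyclizes squalene epoxide (-1.14 ± 0.21, adjusted p = 0.00666), Acat2, which condenses acetyl-CoA (-1.27 ± 0.25, adjusted p = 0.0086), and Sc5d, a sterol desaturase (-1.03 ± 0.19, adjusted p = 0.00705), were lower too. Stard4, a cytosolic sterol carrier, had a difference of -0.997 ± 0.19 (adjusted p = 0.00744). Insig1, described further on, was lower too (-0.72 ± 0.19, adjusted p = 0.0227), and Mvd and Fdps passed at -0.68 and -1.09 (adjusted p = 0.047 and 0.0482). None of these 3 passed when any of the 4 libraries was left out. All 10 proliferation markers were lower in NFs, alone and in the shared gels. In cells alone 3 of 4 adipocyte, 1 of 3 endothelial and 1 of 3 immune markers tested were higher in NFs and 1 immune marker, Cd68, was lower, and in the shared gels 1 of 2 adipocyte and 3 of 4 endothelial markers were higher. The part of these markers in the differences was not tested.

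The 2 genes higher in NFs alone were Srebf1 and Mvk. Srebf1 was at 87.2 and 131 CPM in NFs grown alone, 92.4, 96.8, 81.4 and 109.7 in NFs with tumor cells, 54.4 and 69.9 in lone tumor cells and 80.1 and 87.4 in tumor cells with NFs. The single CD26− and CD26+ libraries of NFs alone stood apart, yet both lay above both tumor lines grown alone (0.97 ± 0.24, adjusted p = 0.0201). The call was lost without CD26+ NFs (0.75) or without 13-MCB-17 (0.80). Mvk, mevalonate kinase, was at 21.4 and 26.5 CPM in NFs grown alone, 11.7, 10.1, 10.9 and 12.0 in NFs with tumor cells, 11.4 and 17.2 in lone tumor cells and 16.6 and 15.3 in tumor cells with NFs, and was 1.88-fold higher in NFs alone (0.91 ± 0.28, adjusted p = 0.0415). It passed without 10-SJK-221 and was lost without any of the other 3 libraries. Srebf2 went the opposite way to Srebf1. It was at 185 and 208 CPM in NFs grown alone, 324, 318, 283 and 288 in NFs with tumor cells, 538 and 479 in lone tumor cells and 545 and 459 in tumor cells with NFs, with every NF library below every tumor library (-1.21 ± 0.21, adjusted p = 0.00536 alone). Per length, Srebf2 stood at 1.25 to 1.67 times Srebf1 in NFs alone, 2.06 to 2.75 times in co-cultured NFs and 4.12 to 7.76 times in tumor cells.

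The stearoyl-CoA desaturases Scd1 and Scd2, which place the double bond of oleate, split the cell types. They lie on chromosome 19 on opposite strands, with 87591 bases between them (Scd2 at 44293674 to 44306864, Scd1 at 44394455 to 44407879). Scd1 was at 192 and 171 CPM in NFs grown alone, 362, 418, 313 and 338 in NFs with tumor cells, 154 and 118 in lone tumor cells and 183 and 181 in tumor cells with NFs. Scd2 was at 405 and 435 CPM in NFs grown alone, 833, 808, 929.7 and 906 in NFs with tumor cells, 1612 and 1819 in lone tumor cells and 2638 and 2633 in tumor cells with NFs. Scd1 was highest in co-cultured NFs, with no overlap with any other group, and Scd2 was highest in co-cultured tumor cells. Per length, Scd2 stood at 1.73 to 2.66 times Scd1 in NFs and 9.35 to 13.8 times in tumor cells. Between cells grown alone Scd2 was 3.65-fold lower in NFs (-1.87 ± 0.22, adjusted p = 0.00138), and Scd1 differed by 0.58 ± 0.24, adjusted p = 0.0969, which did not pass. Of their neighbors, Scd3 stayed at or under 0.113 CPM and Scd4 at or under 4.51 CPM.

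In the shared gels, from which NFs and tumor cells were sorted side by side, NFs were lower for 12 genes and higher for 4, against 26.5% and 31% of 15098 genes tested (57.5% in either direction). The median difference was -0.26 for the 30 genes and 0.03 for all genes. Scd2 was 2.62-fold lower in NFs (-1.39 ± 0.15, adjusted p = 0.000105) while Scd1 was 2.27-fold higher (1.18 ± 0.15, adjusted p = 0.000224). Insig2, the INSIG form that is not itself a strong SREBP target, was 1.82-fold higher in NFs (0.87 ± 0.14, adjusted p = 0.000828), where it had been 2.66-fold lower alone (-1.41 ± 0.22, adjusted p = 0.00423). Hsd17b7, which reduces the C3 ketone during C4 demethylation, was lower in NFs in the shared gels (-1.13 ± 0.14, adjusted p = 0.000211), as was Ebp, the sterol isomerase (-0.78 ± 0.15, adjusted p = 0.00222). Dhcr7, the last reductase before cholesterol (0.65 ± 0.16, adjusted p = 0.00951), and Srebf1 (0.39 ± 0.13, adjusted p = 0.0323) were higher in NFs. Acat2, Pmvk, Idi1, Lss, Msmo1, Srebf2, Acly, Fasn and Elovl6 were lower by 0.41 to 0.78 on the log2 scale. With 1 gel left out and NFs and tumor cells compared as 2 groups of 2 and 1 libraries, an alternative chosen after seeing the data, the 16 calls became 7 without gel 5 (Pmvk, Hsd17b7, Ebp, Insig2, Elovl6, Scd1 and Scd2) and 3 without gel 4 (Insig2, Scd1 and Scd2), against 33.8% and 29.7% of all genes tested. The Srebf1 call was lost in 5 of 6 fits without 1 library (adjusted p = 0.0587 to 0.123), with no filter on low counts (0.0644) and with tumor-cell counts subtracted at the highest marker share (0.0617). Fasn and Lss were each lost in 3 of these 6 fits, Srebf2 and Acat2 each in 2, and Acly, Pmvk and Msmo1 each in 1. The comparisons alone and in shared gels do not share a library, but whether a gene's difference changed between them is the test of the responses given further on.

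**Figure D3:**
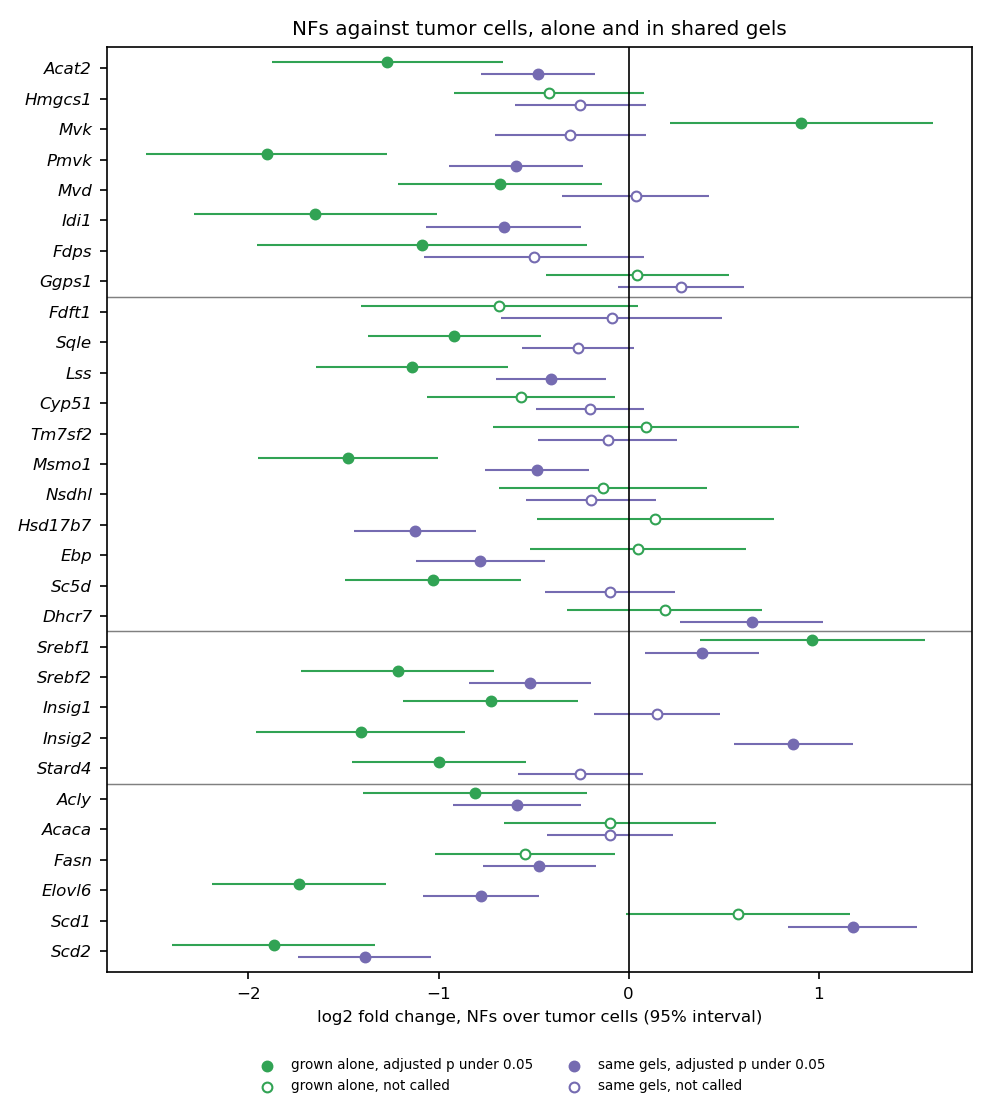
Log2 fold change of NFs over tumor cells (horizontal axis, points with 95% intervals) for each gene, for cells grown alone and for cells of the same gels, filled where the adjusted p is under 0.05. The Scd2 points lie at -1.87 and -1.39, and Insig2 moves from -1.41 alone to 0.87 in shared gels.

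Next, co-cultured NFs were compared with NFs alone. Of the 30 genes, 20 rose and 3 fell, against 25.9% of 15013 genes tested rising and 22.9% falling (48.8% in either direction). The median change was 0.58 for the 30 genes and 0.02 for all genes. By role, 4 of 8 mevalonate genes rose and 1 fell, 6 of 11 squalene to cholesterol genes rose and 2 fell, 4 of 5 regulators and carriers rose, and all 6 fatty acid genes rose.

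The fatty acid genes rose by 0.39 to 1.10. Scd2 rose 2.14-fold (1.10 ± 0.15, adjusted p = 0.000353) and Scd1 2.03-fold (1.02 ± 0.15, adjusted p = 0.00046), and for both every co-cultured NF library lay above both libraries of NFs alone. Fasn, the fatty acid synthase, was at 271 and 279 CPM in NFs grown alone, 421, 399.9, 406 and 364 in NFs with tumor cells, 429 and 469.9 in lone tumor cells and 612 and 660.2 in tumor cells with NFs. Its co-cultured NF libraries were all above those alone (0.58 ± 0.13, adjusted p = 0.00558). Elovl6 rose by 0.68 ± 0.16, adjusted p = 0.00572, and Acaca, which makes malonyl-CoA, by 0.58 ± 0.14, adjusted p = 0.00744, with co-cultured CD26+ NFs of gel 5 at 75.7 CPM below CD26− NFs alone at 81.3 CPM. Acly had the smallest rise of the 6 (0.39 ± 0.13, adjusted p = 0.029). Its call was lost without gel 5 (0.33, adjusted p = 0.16) or with no filter on low counts (0.38, adjusted p = 0.0614).

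Among the regulators, Insig2 was at 43.5 and 38.5 CPM in NFs grown alone, 95.4, 109, 93.7 and 118 in NFs with tumor cells, 134 and 110.3 in lone tumor cells and 70.7 and 60.6 in tumor cells with NFs. Its 4 co-cultured NF libraries all stood above both libraries of NFs alone, and it rose 2.61-fold (1.38 ± 0.15, adjusted p = 5.79e-05), the largest change of the 30 genes in this comparison. Insig1, the SREBP-induced INSIG, was at 119 and 133 CPM in NFs grown alone, 194, 166, 214 and 197 in NFs with tumor cells, 216 and 249 in lone tumor cells and 206 and 195 in tumor cells with NFs, and rose by 0.66 ± 0.15, adjusted p = 0.00606. Its co-cultured NF libraries did not overlap those alone, but the call was lost without gel 5 (0.52, adjusted p = 0.0618). Srebf2 rose by 0.67 ± 0.13, adjusted p = 0.00249 and Stard4 by 0.47 ± 0.16, adjusted p = 0.0297, the latter lost without gel 4. Srebf1 did not pass (-0.13, 95% interval -0.44 to 0.18), with NFs alone and in co-culture overlapping.

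**Figure D4:**
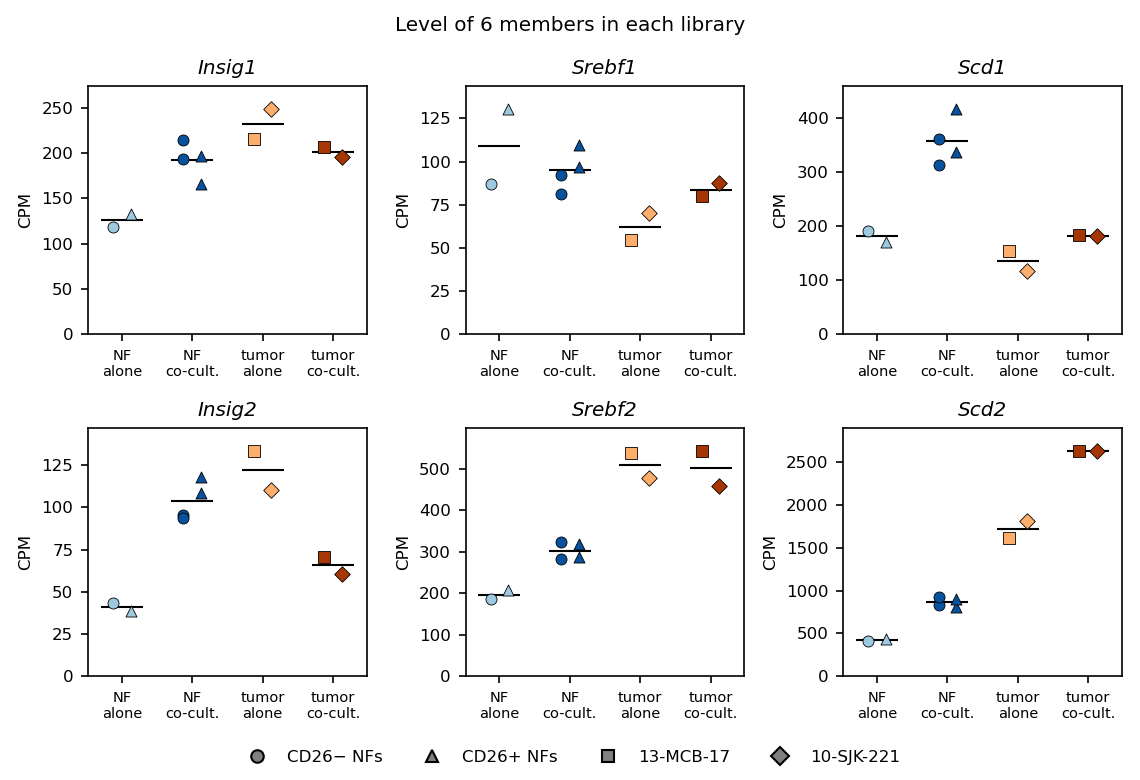
CPM (vertical axes from 0) of 6 genes in each library, with symbols for NF subset or tumor line and a black line at the mean of each group of 2 or 4 libraries. Insig2 rises in co-cultured NFs and falls in co-cultured tumor cells, Scd1 is highest in co-cultured NFs, and Scd2 is highest in co-cultured tumor cells at 2638 and 2633 CPM.

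In the sterol branches the rises were led by Pmvk (1.25 ± 0.17, adjusted p = 0.000329), Lss (1.00 ± 0.13, adjusted p = 0.000175), Acat2 (0.92 ± 0.14, adjusted p = 0.000502) and Sc5d (0.84 ± 0.14, adjusted p = 0.000904). Mvd, Idi1, Fdft1, Dhcr7, Msmo1 and Cyp51 rose by 0.38 to 0.69. Cyp51, the lanosterol demethylase, was lost without gel 5. Hmgcs1, which makes HMG-CoA, was at 263 and 239 CPM in NFs grown alone, 286, 253, 350.0 and 256 in NFs with tumor cells, 358 and 397 in lone tumor cells and 413 and 372 in tumor cells with NFs. Its groups of NFs overlapped and it did not pass (0.23 ± 0.15, adjusted p = 0.223), nor did Sqle (0.19 ± 0.12, adjusted p = 0.21), Ggps1, Fdps, Tm7sf2 or Nsdhl. The 3 genes that fell were Mvk (-1.05 ± 0.17, adjusted p = 0.000702), Hsd17b7 (-0.87 ± 0.14, adjusted p = 0.000659) and Ebp (-0.72 ± 0.15, adjusted p = 0.0031). Hsd17b7 was at 90.2 and 63.5 CPM in NFs grown alone, 46.7, 32.8, 54.9 and 30.2 in NFs with tumor cells, 79.7 and 77.3 in lone tumor cells and 106 and 95.4 in tumor cells with NFs. Ebp was at 30.1 and 27.4 CPM in NFs grown alone, 17.8, 18.4, 14.4 and 17.0 in NFs with tumor cells, 33.8 and 28.4 in lone tumor cells and 34.2 and 32.9 in tumor cells with NFs. For these 3 genes all 4 co-cultured NF libraries lay below both libraries of NFs alone.

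Epithelial marker RNA in the NF libraries moved with these rises. Tumor RNA at the share of the epithelial markers would by itself add 4.38% of the rise of Insig2, 4.37% of that of Scd1, 24.9% of that of Scd2, 22.1% of that of Fasn and 35.2% of that of Acly. It would add 62.0% of the difference of Sqle and 47.1% of that of Hmgcs1, which did not pass. With that share of the tumor library subtracted from each co-cultured NF library, an alternative chosen after seeing the data, 20 genes rose and 3 fell, and they were the same 23 genes (46.7% of all genes called in either direction). The share of the single highest marker, Krt19, would add more: 12.8% of the rise of Insig2, 12.7% of that of Scd1, 72.5% of that of Scd2, 64.4% of that of Fasn and 102% of that of Acly. Subtracted at that share, also chosen after seeing the data, 14 genes rose and 3 fell (41.2% of all genes called in either direction), and the calls of Idi1, Cyp51, Stard4, Acly, Acaca and Elovl6 were lost. Which share holds for the tumor RNA in these libraries was not tested. Proliferation markers summed to 243 and 127 CPM in NFs alone and to 110 to 142 CPM in co-cultured NFs, and 4 of the 10 markers fell. The 5 adipocyte markers tested included 3 that fell (Plin1, Plin4 and Pparg). Of 8 fibroblast markers 2 rose (Dcn and Postn) and 4 fell (Col1a1, Col1a2, Col3a1 and Pdgfra), of 4 endothelial markers 2 rose (Pecam1 and Cdh5) and 1 fell (Tek), and of 3 immune markers tested 2 rose (Cd68 and Csf1r) and 1 fell (Lyz2). The part of these markers in the result was not tested.

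Within the CD26− NFs 16 genes rose and 3 fell (16.6% and 14.1% of 16231 genes tested), and within the CD26+ NFs 9 rose and 2 fell (19% and 15.2%). Each of these rests on 1 library alone and 2 in co-culture, so the spread behind its p-values comes from the 2 pairs of co-cultured libraries only, and the lone library is assumed to vary like them. Epithelial markers rose for 7 of 8 in CD26− and 8 of 8 in CD26+ NFs, and proliferation markers fell for 7 of 10 and 1 of 10. Of 5 adipocyte markers 3 and 4 fell, of 8 fibroblast markers 1 rose and 2 fell in CD26− and 3 fell in CD26+ NFs, of 4 endothelial markers 2 rose in each and 1 fell in CD26− NFs, and of 4 immune markers 2 rose and 1 fell in each. The part of these markers in the result was not tested. Insig2 rose by 1.19 ± 0.21, adjusted p = 0.000842 in CD26− and by 1.60 ± 0.22, adjusted p = 9.08e-05 in CD26+ NFs, Scd1 by 0.88 ± 0.22, adjusted p = 0.00853 and 1.18 ± 0.23, adjusted p = 0.00126, and Scd2 by 1.19 ± 0.24, adjusted p = 0.00173 and 1.02 ± 0.23, adjusted p = 0.00462. Fasn, Elovl6 and Insig1 passed in CD26− NFs (0.68, 0.90 and 0.85) and not in CD26+ NFs (0.49, 0.48 and 0.49). The test of the difference between subsets called none of the 30 genes in edgeR or DESeq2, against 0.376% of genes tested, and none had an unadjusted p under 0.05 in edgeR. It called no marker of these lists either. The 95% interval of that difference ran from -1.08 to 0.25 for Elovl6 and from -0.21 to 1.04 for Insig2, so differences inside these intervals could not be told from 0. Without the co-cultured CD26− library of gel 4 or gel 5, the 19 calls in CD26− NFs became 8 or 9, and the share of all genes called went from 30.8% to 18.4% or 21.1%.

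Tumor cells were compared in the same way, each line in co-culture with itself alone. Of the 30 genes, 6 rose and 4 fell, against 10.8% of 13197 genes tested rising and 11.5% falling (22.3% in either direction), and the median change was 0.04 for the 30 genes and 0.01 for all genes. 4 of the 6 that rose were fatty acid genes. Scd2 rose 1.51-fold (0.60 ± 0.14, adjusted p = 0.0175), Acaca by 0.53 ± 0.11, adjusted p = 0.0101, Fasn by 0.48 ± 0.11, adjusted p = 0.0186 and Scd1 by 0.41 ± 0.12, adjusted p = 0.0456. Srebf1 (0.41 ± 0.10, adjusted p = 0.0231) and Hsd17b7 (0.33 ± 0.10, adjusted p = 0.0406) rose as well, and both lines rose for all 6 genes. Insig2 fell in both lines (-0.92 ± 0.10, adjusted p = 0.000547), as did Msmo1 (-0.54 ± 0.10, adjusted p = 0.0076), Sqle (-0.49 ± 0.10, adjusted p = 0.0116) and Fdps (-0.75 ± 0.21, adjusted p = 0.0358). Acly (0.15 ± 0.11, adjusted p = 0.389) and Elovl6 (-0.30 ± 0.10, adjusted p = 0.0575) did not pass.

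These calls rest on 4 libraries fitted with line and culture, which leaves each gene little spread of its own. Their p-values therefore lean on spread shared over genes, as do those between the lines. DESeq2 called 6 of the 10, without Fdps, Hsd17b7, Srebf1 and Scd1, against 11.9% of all genes tested. Under RLE scaling 8 of the 10 remained, against 20.1% of all genes tested, and Scd1 was among those lost (0.40, adjusted p = 0.0677). With all 10 libraries in the fit, 6 of the 10 remained (Sqle, Msmo1, Insig2, Acaca, Fasn and Scd2), against 9.52% of all genes tested, and with any tumor library left out of that fit 0 or 1 remained: 0 without 13-MCB-17 alone or in co-culture, and 1, Insig2, without 10-SJK-221 alone or in co-culture. Those fits called 1.27 to 4.17% of all genes tested. Proliferation markers moved too, with 6 of 10 falling and 1 rising in co-culture, as did 4 of 8 epithelial markers (falling), 6 of 7 fibroblast markers (rising) and 3 of 3 adipocyte markers (falling). Of 2 immune markers tested Csf1r rose and Cd68 fell, and 1 of 3 endothelial markers, Kdr, fell. Their part in the result was not tested.

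**Figure D5:**
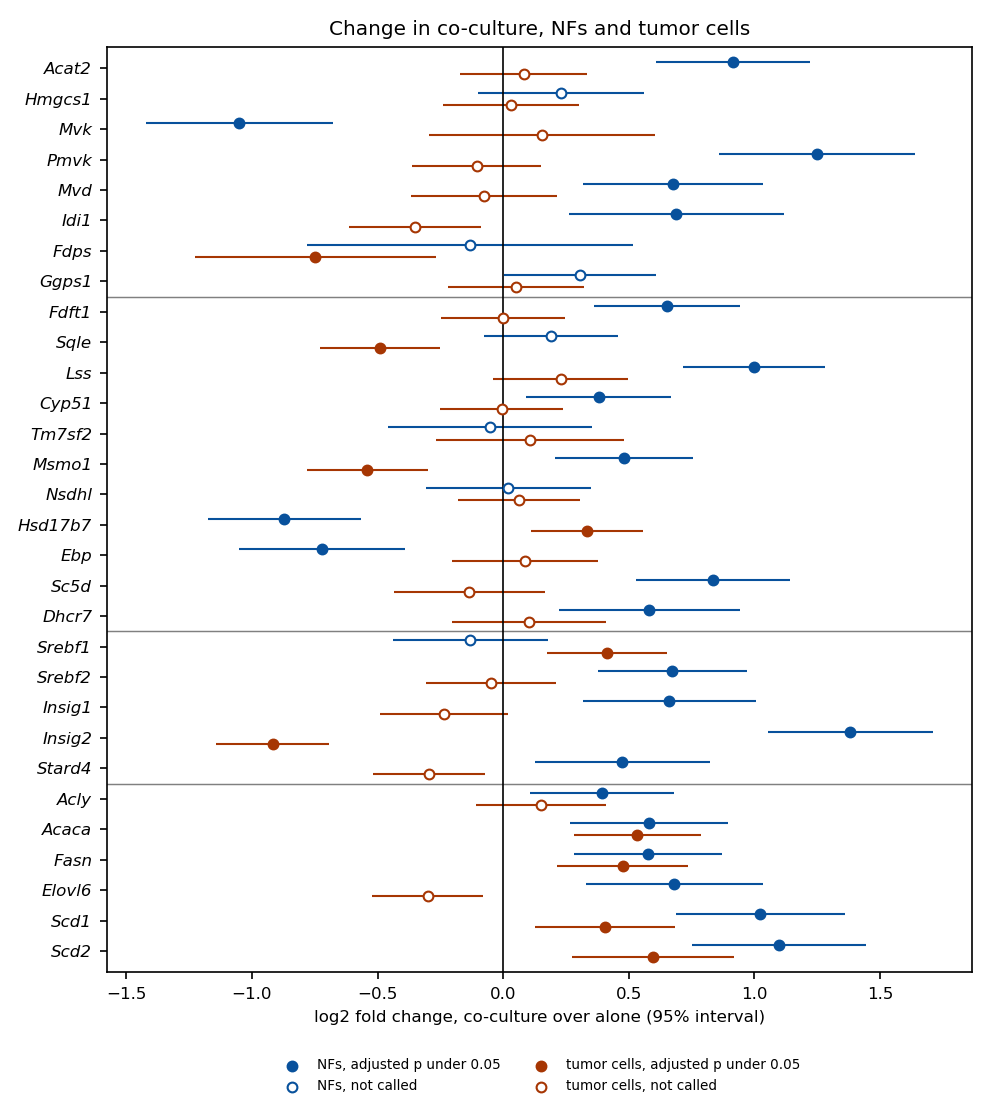
Log2 fold change in co-culture over alone (horizontal axis, points with 95% intervals) for each gene in NFs and in tumor cells, filled where the adjusted p is under 0.05. The NF points lie to the right of the tumor points for most sterol genes, and for Acaca and Fasn the points nearly coincide.

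The change in co-culture differed between NFs and tumor cells for 17 of the 30 genes. 14 had a higher change in NFs and 3 a lower one, against 16.9% and 14.4% of 15878 genes tested. Insig2 differed most, by 2.29 ± 0.20, adjusted p = 3.02e-05, since it rose in NFs and fell in tumor cells. Msmo1 also went opposite ways (1.01 ± 0.17, adjusted p = 0.00131), and Hsd17b7 fell in NFs and rose in tumor cells (-1.22 ± 0.19, adjusted p = 0.000958). Pmvk (1.34 ± 0.23, adjusted p = 0.00172) and Idi1 (1.03 ± 0.24, adjusted p = 0.00985) had higher changes in NFs, and Mvk (-1.22 ± 0.28, adjusted p = 0.00839) and Ebp (-0.82 ± 0.21, adjusted p = 0.0135) lower ones. By role, 9 of 19 sterol enzymes had a higher change in NFs and 3 a lower one, and 4 of 5 regulators and carriers a higher one. The change was also higher in NFs for 8 of 8 epithelial, 1 of 5 adipocyte, 2 of 4 endothelial and 1 of 3 immune markers, and lower for 7 of 8 fibroblast, 1 of 5 adipocyte and 2 of 10 proliferation markers, whose part in the result was not tested.

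Of the 6 fatty acid genes, only Elovl6 passed the test of the difference between cell types with edgeR and TMM scaling (0.97 ± 0.21, adjusted p = 0.00593). Fasn and Acaca differed by 0.09 (interval -0.31 to 0.48) and 0.03 (interval -0.41 to 0.47), Acly by 0.23 (interval -0.17 to 0.62), Scd2 by 0.49 (interval 0.00 to 0.97) and Scd1 by 0.60 ± 0.21, adjusted p = 0.0536, none past the threshold. DESeq2 called Scd1 and Scd2 too, and Scd1 also passed under RLE scaling (adjusted p = 0.043) and with tumor-cell counts subtracted at the summed share (0.0461) or at the share of the highest marker (0.044). That last subtraction ended the calls of Elovl6 (0.78, adjusted p = 0.0755), Idi1 (0.87, adjusted p = 0.113), Mvd and Stard4 and left 14 of the 30 genes called, against 24.8% of all genes tested. The 17 calls became 11 without CD26− NFs alone (10 of the 17 and Srebf1), 9 without 13-MCB-17 alone or in co-culture, and 7 without 10-SJK-221 alone or in co-culture. Those 7 were Mvk, Pmvk, Idi1, Msmo1, Hsd17b7, Insig2 and Elovl6. In the order given, these fits called 24.3%, 15.2 and 15%, and 17.5 and 17.4% of all genes tested, against 31.4% with all libraries.

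CD26+ and CD26− NFs were compared over the 3 gels that held both. 2 of the 30 genes were lower in CD26+ NFs and none was higher, against 3.6% and 3.93% of 15013 genes tested (7.53% in either direction). The median difference was -0.16 for the 30 genes and 0.00395 for all genes, and 26 of the 30 differences were negative. Hsd17b7 was 1.72-fold lower in CD26+ NFs (-0.79 ± 0.13, adjusted p = 0.0114) and Acaca 1.53-fold lower (-0.61 ± 0.13, adjusted p = 0.0259), each in 3 of 3 gels. Acat2, Hmgcs1, Idi1, Cyp51 and Stard4 were lower in 3 of 3 gels by 0.40 to 0.57 with adjusted p of 0.0554 to 0.0976, and DESeq2 called Acat2 and Cyp51 among 4 genes, against 11.2% of all genes tested. Scd1 (-0.10 ± 0.14, adjusted p = 0.688), Scd2 (-0.15 ± 0.14, adjusted p = 0.549), Fasn (-0.22 ± 0.12, adjusted p = 0.3), Srebf1 (0.21 ± 0.13, adjusted p = 0.357) and Srebf2 (-0.10 ± 0.12, adjusted p = 0.648) did not pass. Without gel 5, edgeR called none of the 30 genes and 0.118% of all 14434 genes tested, so nearly all calls of the table were lost. Of the marker lists, 1 of 7 epithelial, 1 of 5 adipocyte and 1 of 4 endothelial markers were higher and 2 of 8 fibroblast and 1 of 10 proliferation markers were lower in CD26+ NFs, and their part in the result was not tested.

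Between the tumor lines, only Fdft1, which joins farnesyl units into squalene, passed, against 8.54% of 13197 genes tested lower and 5.93% higher in 10-SJK-221. In tumor cells Fdft1 stood at 161 and 97.8 CPM without NFs and 181 and 89.7 CPM with them, and in NFs at 74.5 and 70.7 CPM without tumor cells and 122, 115, 98.8 and 106 CPM with them. Both 10-SJK-221 libraries lay below both 13-MCB-17 libraries (-0.94 ± 0.11, adjusted p = 0.00104). Fdft1 lies on chromosome 14 at 63145150 to 63179578. Of the 40 tested genes that flank it on that chromosome, equally many on each side, 25 were called lower in 10-SJK-221 and none higher. Their starts run from 59201209 to 66084374, and their median difference was -0.83. The Fdft1 call was lost without either co-cultured tumor library. All 10 proliferation markers were higher in 10-SJK-221. Of 8 epithelial markers 1 was higher and 1 lower, of 7 fibroblast markers 1 was higher and 3 lower, 1 of 3 adipocyte markers was higher and 1 of 2 immune markers was lower, and their part in the result was not tested. Acly was higher in 10-SJK-221 by 0.36 ± 0.11, adjusted p = 0.0664, short of the threshold, and passed under upper-quartile scaling (adjusted p = 0.0288) and with no filter on low counts (adjusted p = 0.025).

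Other genes of the pathway, which were listed apart from the 30, were counted as lists. Of 20 tested sterol and fatty acid genes in NFs, 14 rose and 4 fell in co-culture, against 25.9% and 22.9% of all genes tested. Acss2, which makes acetyl-CoA from acetate, was at 13.0 and 21.9 CPM in NFs grown alone, 69.1, 73.4, 51.9 and 70.5 in NFs with tumor cells, 23.1 and 18.1 in lone tumor cells and 19.9 and 20.2 in tumor cells with NFs, and rose by 2.00 ± 0.18, adjusted p = 2.01e-05 in NFs and differed by -0.06 in tumor cells (adjusted p = 0.838). Scarb1, the receptor for high-density lipoprotein, rose by 1.48 ± 0.17, adjusted p = 0.000103 in NFs. Scap, the escort of the SREBPs, and Mbtps1, the protease that first cuts them, fell in NFs (-0.64 ± 0.12, adjusted p = 0.00179 and -0.69 ± 0.13, adjusted p = 0.00175), and so did Elovl5, an elongase of polyunsaturated fatty acids (-0.97 ± 0.11, adjusted p = 0.000112). In tumor cells, 5 of 19 rose and none fell, against 10.8% and 11.5% of all genes tested, and the rises included the desaturases Fads1 (2.08 ± 0.11, adjusted p = 2.67e-05) and Fads2 (0.82 ± 0.10, adjusted p = 0.000877). Fads1 was at 187 and 202 CPM in NFs grown alone, 332, 294, 299 and 289 in NFs with tumor cells, 37.3 and 10.9 in lone tumor cells and 152 and 50.4 in tumor cells with NFs. Of the 6 targets of the sterol sensor LXR, 1 rose in co-cultured NFs (Abcg1, a sterol exporter, 1.57 ± 0.23, adjusted p = 0.000462). There 4 fell (Mylip, Lpcat3, Nr1h3 and Apoe). Apoe fell most (-3.43), from 113 and 212 CPM in NFs alone to 10.7, 19.3, 9.21 and 19.3 CPM in co-culture. Of the 2 targets tested in tumor cells neither passed. In cells grown alone, 5 of 20 listed sterol and fatty acid genes were higher and 6 lower in NFs, and 4 of 6 LXR targets were higher and 1 lower, against 25.9% and 21.3% of all genes. In the shared gels these were 8 and 5 of 20, and 5 and 1 of 6, against 31% and 26.5%. The response differed for 13 of 20 (8 higher and 5 lower in NFs) and for 2 of 6 (1 each way), against 16.9% and 14.4%. Between subsets 1 of 20 was higher and 1 lower in CD26+ NFs, and 2 of 6 LXR targets were higher, against 3.93% and 3.6%. Between lines, 3 of 19 were lower in 10-SJK-221, against 8.54%.

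Several of the 30 genes share sequence with other rows of the table, and their values are uncertain to that extent. Fdps, at 2.76 to 9.99 CPM, has 7 near copies and shares 26.7% of its exon bases with Gm43738. Acat2 resembles Acat3, Acaca a pseudogene, and Idi1 its own pseudogenes. Acat2 also matched Tcp1, counted at up to 469 CPM, at 98.7% identity over 445 bases (19.8% of its transcript), and Scd2 matched Scd1 at 95.5% identity over 623 bases (11.4%). Fdft1 shares 18.3% of its exon bases with Ctsb on the other strand, Hmgcs1 12.1% with Gm48342 and Tm7sf2 12.1% with Vps51. Ctsb was counted at up to 3274 CPM and matched 774 bases (20.9%) of the Fdft1 transcript at 100% identity. Fdft1 itself stood at 70.7 to 181 CPM, and the part of Ctsb reads in its counts was not tested. Whether counting used the strand is not given in the sources used here.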

How the data were processed

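Sorted cells were sequenced from polyA-selected, stranded libraries. The authors deposited raw counts per gene for all 10 libraries, with no normalization, and the submitters' processing notes name HISAT2 2.2.1 and GRCm38. Which program counted the reads, with which annotation and strand setting, is not given in the sources used here. 1 row without a gene held 0 counts and was left out. Part of the genotype of the tumor lines is not reported here. The members and lists were chosen with earlier results of these data known. The genes named with values in every library were Hmgcs1, Sqle, Idi1, Insig1, Srebf1, Srebf2, Fasn, Scd1, Scd2, Acly and Elovl6 whatever their p, and other members were named where they passed the test and moved alike in all gels or lines compared (by range and count where more than 6), with further members and listed genes given as examples chosen after their values were seen.

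CPM are counts scaled to a library total of 1000000. For levels compared between genes, counts were divided by the exon length in GENCODE M21 and scaled to the same total in each library. That annotation held 99.5% of the gene identifiers, of which 99.4% had the same start and end. Tests used edgeR 4.0.16 in R 4.3.3 (glmQLFit and glmQLFTest on counts, TMM scaling, filterByExpr, Benjamini-Hochberg over all genes tested, threshold 0.05). SE was the log2 fold change divided by the root of F. The fit of NFs held subset and culture over 6 libraries, the fit of tumor cells line and culture over 4, and the difference of responses all 10. The study's methods name DESeq2, which was run here (1.42.0) as an alternative, beside other scalings, no filter, a fold limit and libraries left out. The pipeline was tested on simulated counts, where the share of false calls exceeded the threshold in each of the fits simulated (subsets, culture in NFs and culture in tumor cells) and most in those of subsets and tumor cells, so calls near the threshold are less firm than their adjusted p. A gel number marks a shared gel, so NF subsets and tumor cells are paired by design. Over 15098 genes, deviations of libraries from the same gel correlated at 0.174 (CD26− with CD26+ NFs), 0.139 and 0.0805 (each with tumor cells). Near copies were sought with blastn 2.17.0 in GENCODE M21 transcripts, with at least 90% identity over at least 100 bases.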

Additional observations from a re-analysis of the deposited data

Results flagged for a closer look

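The change in co-culture differed between NFs and tumor cells, by a test of the difference itself, for 17 of the 30 genes, against 31.4% of 15878 genes tested. The 17 calls became 7 without either 10-SJK-221 library, 9 without either 13-MCB-17 library and 11 without CD26− NFs alone, and those fits called 17.4 to 17.5%, 15 to 15.2% and 24.3% of all genes tested. Values are the log2 change in NFs minus that in tumor cells. The difference was higher in NFs for Insig2 (2.29), Pmvk (1.34), Idi1 (1.03), Msmo1 (1.01), Elovl6 (0.97), Sc5d (0.96), Insig1 (0.88), Acat2 (0.82), Lss (0.75), Stard4 (0.75), Mvd (0.74), Srebf2 (0.71), Sqle (0.67) and Fdft1 (0.64). It was lower in NFs for Mvk (-1.22), Hsd17b7 (-1.22) and Ebp (-0.82). NFs and tumor cells in co-culture came from the same 2 gels, and each change was taken against other gels.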

How the results depend on the processing

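Calls among the 30 genes are given with the share of all genes called in the same fit. With the fold limit of the absolute log2 change above 1, they became 0 between subsets (3.38%), 5 in co-cultured NFs (27%), 3 in CD26− NFs (22.1%), 6 in CD26+ NFs (24.6%), 0 in tumor cells (8.3%), 0 between lines (5.81%), 11 between cell types alone (40.2%), 3 in shared gels (37.3%) and 6 for the difference of responses (22.3%). DESeq2 gave 4 calls between subsets (11.2%) and 6 in tumor cells (11.9%). Between lines, upper-quartile scaling gave 2 (18.5%) and no filter on low counts 3 (12.1%). In tumor cells, no term for the line gave 0 (0%, so every call of the table was lost) and the fit of all 10 libraries 6 (9.52%). The other combinations of scaling, filter, tool and fit stayed within 1.5 times of the reported count. Leaving out 1 library or gel gave 0 to 2 calls between subsets (0.118 to 9.11%), 20 to 22 in co-cultured NFs (35.5 to 45.7%), 8 to 9 in CD26− NFs (18.4 to 21.1%), 8 to 9 in CD26+ NFs (20.2 to 30.6%), 0 between the responses of subsets (0 to 0.187%), 0 to 1 in tumor cells (1.27 to 4.17%), 0 to 1 between lines (1.62 to 1.98%), 12 to 15 between cell types alone (31.4 to 37.9%), 3 to 16 in the shared gels (29.7 to 53%) and 7 to 17 for the difference of responses (15 to 32.9%). For co-cultured NFs only libraries of gel 4 and gel 5 were left out. How these calls depend on either library of NFs alone was not tested. A fit with a library left out has fewer libraries, and a lone library is assumed to vary like the others. In the shared gels, leaving out a gel left no residual degrees of freedom with 3 groups and was fitted with 2. The lowest counts there were the fits without gel 4 (3) and gel 5 (7), while leaving out 1 library gave 11 to 16. These fits and both subtractions of tumor-cell counts were chosen after seeing the data. With the gel as a replicate block, the pairing by gel gave 2 calls between subsets (8.87%), 0 for the difference between subset responses (2.43%) and 16 in shared gels (59.5%), the same counts as without it, and changed no call. The culture effect in NFs is nested in gel, so no block could be fitted there. All genes called split as 52.2% higher between subsets and 41% between lines, against 64.4% and 51.9% under upper-quartile scaling, and the cause was not tested.

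TMM-scaled CPM moved the mean summed sterol enzymes to 1242 in CD26− and 1105 in CD26+ NFs alone, 1661 in co-cultured CD26− NFs and 1924 in tumor cells alone, and the fatty acid genes to 1278, 1160, 2339 and, in co-cultured tumor cells, 3807. Of the values for named genes under all alternatives, 925 kept direction and call, 100 lost the call, 10 gained it and 21 turned sign. Those that turned lay near 0 and were not called. Between lines these were Insig1 (0.037) and Elovl6 (0.045) under upper-quartile scaling and, with 1 library left out, Hmgcs1 (-0.19 to 0.075), Idi1 (-0.10 to 0.047), Insig1 (-0.11 to 0.13), Scd2 (-0.038 to 0.099) and Elovl6 (-0.0033 to 0.038). The others were Hmgcs1 in tumor cells (-0.096 to 0.16), Idi1 (-0.31 to 0.11) and Acly (-0.16 to 0.035) between subset responses, Hmgcs1 (-0.45 to 0.018) and Insig1 (-0.028 to 0.38) in shared gels, and Fasn between cell type responses (-0.0096 to 0.16, and -0.0020 with tumor-cell counts subtracted at the highest marker share).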
